A study of Mus musculus with 2 samples.

Results

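The genes described are 10 genes of haemoglobin and of the red cell programme: the alpha globins Hba-a1 and Hba-a2, Hbb-b1 and Hbb-b2 of the beta type, the transcription factors Gata1, Klf1 and Gfi1b, the erythropoietin receptor Epor, and the carbonic anhydrases Car1 and Car2. They were chosen by symbol, and all 10 were found among the 22020 gene symbols of the table. Where a symbol had several transcripts, the one with the highest mean over both libraries stands for it. A mean of at least 1 RPKM (reads per kilobase of transcript, scaled to library size) was reached by 11356 genes, among them 8 of the 10. The exceptions were Klf1 and Epor, whose values are given all the same.

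RNA was sequenced from LSK cells, a sorted bone marrow fraction that lacks lineage markers and carries c-Kit and Sca-1 and that holds the blood stem cells and multipotent progenitors. The cells came from Utx/p53 double knockout (DKO) mice and from p53 KO mice, both of strain C57BL/6 and 8 weeks old, so p53 was missing from both groups and Utx, the X-linked histone demethylase gene Kdm6a, from the DKO cells as well. The labels give no promoter or Cre for either deletion, no sex, no list of the lineage antibodies and no number of mice behind a library. There was 1 library per genotype, with 19926294 reads (DKO) and 17088105 reads (p53 KO) per the file's header, so no difference has a replicate check, no test was made, and the spread between mice is unknown.

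Haemoglobin carries oxygen in red cells as a complex of alpha and beta globin chains, each holding haem. GATA1 is the factor that red cell, megakaryocyte and mast cell precursors depend on, KLF1 switches on adult beta globin through CACCC sequences, and GFI1B is a repressor needed for red cells and platelets. Erythropoietin, acting through its receptor, keeps committed red cell precursors alive. Carbonic anhydrases interconvert carbon dioxide and bicarbonate, and types 1 and 2 are the abundant ones of red cells. In LSK cells such genes are known mainly as low-level lineage priming, since red cell commitment comes later.

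Facts of the libraries bear on every value. Kdm6a was at 1.26 RPKM in DKO cells and 5.32 RPKM in p53 KO cells, and Trp53 transcripts were present in both (12.9 and 19.4 RPKM), which whole-transcript values cannot relate to the deleted part. The 10 most abundant genes held 20.0% of the summed RPKM in DKO cells and 8.17% in p53 KO cells, and the median difference of all 11356 genes on log2(RPKM + 1), DKO minus p53 KO, was -0.24. With the authors' gfold normalization constants in place of the deposited RPKM scale, that median was 0.27, a shift of 0.51. A gene is called lower or higher here when log2(RPKM + 1) differs by 1 or more, that is 2-fold, a scale that understates the change of low genes. By that rule 13.5% of the 11356 genes were lower and 6.60% were higher in DKO cells. Intervals given with RPKM ratios are exact 95% intervals from recovered whole reads and cover counting error only, since PCR copies were not marked.

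All 8 measured genes were lower in DKO cells by at least 2-fold, against the background of 13.5%, and none was higher, against 6.60%. Their median difference was -2.66, beside -0.24 for all genes, and the single differences lay between -3.40 and -1.08. Each of the 8 had at least 2.31 RPKM in DKO cells and at least 7.91 RPKM in p53 KO cells, so none passed the filter through one library alone. Since these genes were assembled with results of the libraries known, the count describes them and is no independent support. Of the 8, the globins were farthest down, then came Car1, Car2 and Gata1, and then Gfi1b. Klf1 pointed the other way at very low levels, and Epor had 6 reads in all. In bulk RNA, fewer cells that carry these transcripts and less RNA per cell cannot be told apart.

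**Figure D1:**
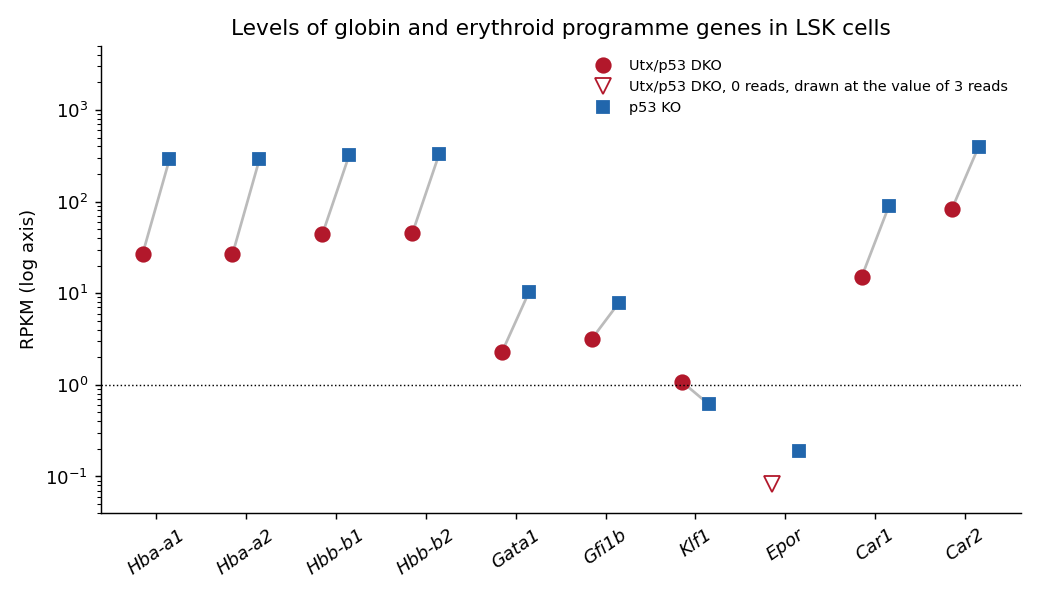
RPKM of the 10 genes on a log axis, with DKO cells as red circles and p53 KO cells as blue squares, 1 library each. The dotted line marks 1 RPKM, and Epor, with 0 reads in DKO cells, is drawn as an open triangle at the value of 3 reads. The globins, Gata1, Gfi1b, Car1 and Car2 lie lower in DKO cells, and Klf1 lies higher.

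Of the 8 measured genes, the alpha globins had the lowest DKO levels relative to p53 KO cells. Hba-a1 was at 26.7 RPKM (297 reads) in DKO cells and 290.4 RPKM (2774 reads) in p53 KO cells. It was 10.9-fold lower (interval 9.66 to 12.3), a log2(RPKM + 1) difference of -3.40 that ranked 12 from the lowest of 11356 genes. By level it stood at rank 2459 of 22020 genes in DKO cells and at rank 139 in p53 KO cells. Hba-a2 was at 26.5 RPKM (297 reads) in DKO cells and 289 RPKM (2776 reads) in p53 KO cells, ranking 11 from the lowest.

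These symbols are not separate measurements. Each alpha globin symbol has 2 rows in the table, and the second pair of rows held 163 reads in DKO cells and 1402 reads in p53 KO cells under either name, a ratio of 0.0997 (interval 0.0842 to 0.117). The recovered lengths were 559 bases for Hba-a1 and 563 bases for Hba-a2. In the GENCODE annotation of GRCm38 the spliced transcripts of Hba-a1 and Hba-a2 matched at 537 of 538 aligned bases, so reads cannot be assigned to a copy, and the rule for reads that fit several places is not known. The copies are also alike upstream. The 250 bases before each start site are printed because the copies had the same values and nearly the same promoter, identical over 247 bases with an offset of 3. The sequences are from RefSeq (GRCm38.p6, a later build than the mm9 of the files) and run 5′ to 3′ on the gene's strand, with capitals for matches to the 3 motifs searched on both strands, which were a GATA motif (AGATAA or AGATAG, or either word with T in place of its first A), the CACCC type (CCNCNCCC) and CCAAT.
Hba-a1, chr11:32283422-32283671, + strand: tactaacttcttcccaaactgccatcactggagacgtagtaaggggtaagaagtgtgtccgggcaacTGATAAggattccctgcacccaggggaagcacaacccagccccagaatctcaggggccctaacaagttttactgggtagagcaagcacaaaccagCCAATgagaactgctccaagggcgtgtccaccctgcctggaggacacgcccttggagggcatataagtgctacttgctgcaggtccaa
Hba-a2, chr11:32296242-32296491, + strand: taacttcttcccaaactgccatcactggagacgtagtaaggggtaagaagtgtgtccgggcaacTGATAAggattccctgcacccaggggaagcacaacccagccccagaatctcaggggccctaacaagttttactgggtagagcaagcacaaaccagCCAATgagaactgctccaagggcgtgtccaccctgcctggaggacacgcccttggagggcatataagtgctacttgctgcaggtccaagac

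The GATA match lay 183 to 178 bases before the start in Hba-a1 and 186 to 181 before it in Hba-a2, and the CCAAT match 88 to 84 and 91 to 87 bases before it. Among all 32851 promoter windows of this length in the table, 26.5% held the GATA motif, 45.9% the CACCC type and 33.8% CCAAT. A match describes letters and is not a measured binding site.

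The beta globins differed less than the alpha globins. Hbb-b1 was at 43.9 RPKM (548 reads) in DKO cells and 324 RPKM (3468 reads) in p53 KO cells, 7.38-fold lower (interval 6.74 to 8.09). Hbb-b2 was at 44.9 RPKM (546 reads) in DKO cells and 332 RPKM (3458 reads) in p53 KO cells, 7.39-fold lower (interval 6.75 to 8.10). These symbols too hold nearly the same reads. By its accession the Hbb-b1 row is the gene now called Hbb-bt in RefSeq's GRCm38.p6, the beta globin of the C57BL/6 haplotype whose partner is Hbb-bs. Transcripts of Hbb-bs and Hbb-bt matched at 579 of 624 aligned positions (92.8%), more distinct than the alpha copies. The Hbb-b2 row kept the symbol Hbb-b2 in RefSeq, so this does not compare the Hbb-b1 and Hbb-b2 rows with each other. The Hbb-bt promoter is shown because its row stands for the beta globins here. It held 1 CACCC match 107 to 100 bases before the start and 3 CCAAT matches, of which 2 adjoin on opposite strands, and the GATA words were not found in this window.
Hbb-bt, chr7:103813924-103814173, - strand: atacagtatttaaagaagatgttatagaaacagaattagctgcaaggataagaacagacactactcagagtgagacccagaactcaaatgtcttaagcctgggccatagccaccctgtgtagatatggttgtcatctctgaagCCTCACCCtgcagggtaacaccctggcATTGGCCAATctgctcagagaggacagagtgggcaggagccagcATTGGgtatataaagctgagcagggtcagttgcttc

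Counted once per chain, alpha and beta globin together took 0.00424% of all reads in DKO cells (exact binomial interval 0.00396 to 0.00454) and 0.0365% in p53 KO cells (0.0356 to 0.0374). Alpha over beta globin was taken as Hba-a1 over Hbb-b1, each symbol by its row with the highest mean. This ratio of RPKM was 0.607 in DKO cells (interval 0.525 to 0.700) and 0.896 in p53 KO cells (0.852 to 0.942). These intervals do not overlap, and the ratio does not depend on how the libraries are scaled. It does depend on how the reads of the copies were divided between rows.

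Of the other globin genes, 5 more were found in the table, and 2 of them reached a mean of 1 RPKM. The embryonic alpha-type globin Hba-x had 2 reads in DKO cells and 21 reads in p53 KO cells (0.167 and 2.05 RPKM, a difference of -1.38). Hbq1b, a theta globin gene, had 5 reads in DKO cells and 31 reads in p53 KO cells (0.335 and 2.43 RPKM, a difference of -1.36). Both were under 1 RPKM in DKO cells and passed the filter through the p53 KO library, so they had to come out lower. Hbq1a had 1 read in DKO cells and 5 reads in p53 KO cells, and the embryonic beta-type globin Hbb-y had 0 and 2 reads. Hbb-bh1 had 0 reads in both libraries. The gene of the alpha globin chaperone AHSP was not analysed here.

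The genes next to the alpha globin cluster on chromosome 11 differed less than Hba-a1 and Hba-a2, in both directions. On the side of Hba-x, Nprl3, the gene within which the main alpha globin enhancers lie, was at 4.44 RPKM in DKO cells and 5.84 RPKM in p53 KO cells, a difference of -0.33. Next to it the DNA repair gene Mpg was at 12.8 RPKM in DKO cells and 13.0 RPKM in p53 KO cells (-0.02). Rhbdf1 followed with 47 reads in DKO cells and 9 reads in p53 KO cells, under the filter and 4.48-fold higher (interval 2.17 to 10.4), and then the splicing gene Snrnp25 at 63.9 RPKM in DKO cells and 41.1 RPKM in p53 KO cells (0.62). On the other side Sh3pxd2b was at 1.27 RPKM in DKO cells and 0.583 RPKM in p53 KO cells, under the filter. Farther out on that side Ubtd2 was at 0.530 RPKM in DKO cells and 1.70 RPKM in p53 KO cells (-0.82), and the lymphocyte kinase gene Stk10 at 6.11 and 13.6 RPKM (-1.04), lower by the 2-fold rule. With the authors' gfold constants the sign of Nprl3 and Mpg turned positive, at 0.17 and 0.54, and with equal totals Snrnp25 kept its sign at 0.26. These neighbours were chosen by position after the globin values had been seen.

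**Figure D2:**
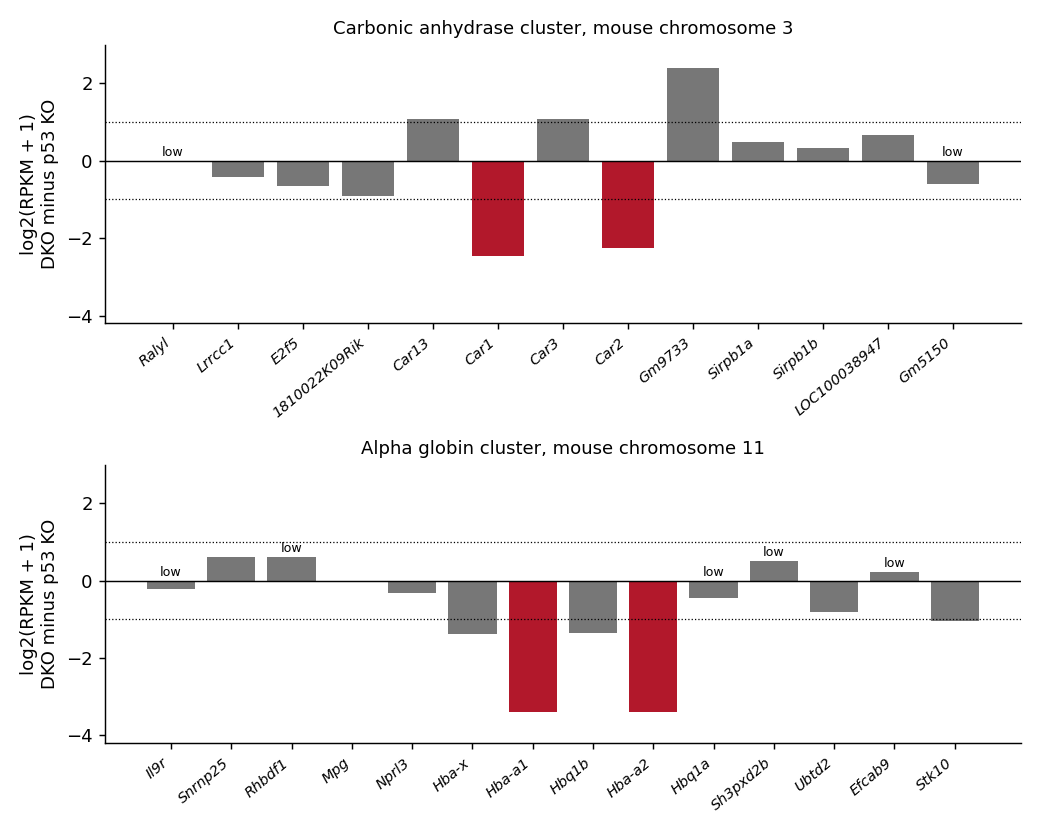
Differences on log2(RPKM + 1), DKO minus p53 KO, for genes with reads in chromosomal order around the carbonic anhydrase cluster (top) and the alpha globin cluster (bottom), with Car1, Car2, Hba-a1 and Hba-a2 in red. Bars marked low had a mean under 1 RPKM, and dotted lines mark 2-fold. In the upper panel Car13 (1.08) and Car3 (1.09) point up and Car1 (-2.47) and Car2 (-2.26) point down, and in the lower panel the globins stand below Nprl3, Mpg and Snrnp25.

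Among the factors, Gata1 and Gfi1b were lower and Klf1 was not. Gata1 was at 2.31 RPKM (83 reads) in DKO cells and 10.4 RPKM (320 reads) in p53 KO cells, 4.50-fold lower (interval 3.52 to 5.79), with a difference of -1.78. Its partner Gata2, which acts earlier and is replaced by GATA1 on shared sites during red cell maturation, was at 8.62 RPKM in DKO cells and 16.7 RPKM in p53 KO cells (-0.88). The ratio of Gata1 to Gata2 RPKM was 0.267 in DKO cells and 0.620 in p53 KO cells, so Gata1 was the lower of the pair in both libraries and more so in DKO cells.

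Gfi1b was at 3.20 RPKM (110 reads) in DKO cells and 7.91 RPKM (233 reads) in p53 KO cells, 2.47-fold lower (interval 1.96 to 3.13), with a difference of -1.08. Its other transcript had 115 reads in DKO cells and 243 reads in p53 KO cells. Gfi1b was the member closest to the 2-fold line, and its call ended under 3 of the 4 other scalings, at -0.90, -0.95 and -0.59. Its paralogue Gfi1, a repressor of granulocyte and lymphoid precursors likewise picked with its value in view, was at 14.4 RPKM in DKO cells and 3.97 RPKM in p53 KO cells. The Gfi1b to Gfi1 ratio was 0.223 in DKO cells and 2.00 in p53 KO cells, which does not depend on the scaling.

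Klf1 had 33 reads in DKO cells and 16 reads in p53 KO cells, which is 1.08 and 0.610 RPKM. Its RPKM ratio was 1.77 with an interval of 0.946 to 3.44, which spans 1 on the deposited scale. With the gfold constants the ratio was 2.68 (interval 1.44 to 5.22), with upper-quartile scaling 1.97 (1.06 to 3.84) and with equal totals 1.36 (0.730 to 2.65). Whether the interval spans 1 thus depends on the scaling. The gene for the factor of beta globin transcription was thus at about 1 RPKM or less in both libraries, including the p53 KO library with Hbb-b1 at 324 RPKM. Epor had 0 reads in DKO cells and 6 reads in p53 KO cells, or 0.192 RPKM. The exact interval of its RPKM ratio ran up to 0.728, which allows a fold as small as 1.37, and up to 1.11 with the gfold constants, which spans 1. For both genes the few reads allow little more to be said.

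The promoters of these factors and the receptor are shown because the gap between the libraries differed among their genes. The Gata1 window held 3 CACCC matches within 71 bases of the start and no GATA word. The Klf1 window held 1 GATA match 80 to 75 bases before the start and 1 CCAAT match 64 to 60 before it. Epor held 1 GATA match 54 to 49 bases before the start and 4 CACCC matches in overlapping pairs, and Gfi1b held 1 GATA match 120 to 115 bases before it, 2 CACCC matches and 1 CCAAT match.
Gata1, chrX:7967911-7968160, - strand: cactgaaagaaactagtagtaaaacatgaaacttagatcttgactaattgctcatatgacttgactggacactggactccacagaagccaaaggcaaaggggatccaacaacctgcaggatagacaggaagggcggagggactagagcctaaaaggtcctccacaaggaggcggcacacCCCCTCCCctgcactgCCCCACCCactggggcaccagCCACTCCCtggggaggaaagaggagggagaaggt
Klf1, chr8:84901732-84901981, + strand: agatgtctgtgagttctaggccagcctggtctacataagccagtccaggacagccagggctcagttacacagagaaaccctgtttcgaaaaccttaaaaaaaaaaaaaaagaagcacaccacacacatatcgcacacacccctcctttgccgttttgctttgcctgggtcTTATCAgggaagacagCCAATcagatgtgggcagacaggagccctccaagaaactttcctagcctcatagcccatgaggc
Epor, chr9:21963577-21963826, - strand: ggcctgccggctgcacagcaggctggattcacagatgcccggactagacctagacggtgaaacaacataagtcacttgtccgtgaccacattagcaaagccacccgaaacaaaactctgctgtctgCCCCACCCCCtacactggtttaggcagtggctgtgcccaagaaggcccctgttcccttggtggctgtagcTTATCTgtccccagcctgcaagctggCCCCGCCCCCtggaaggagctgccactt
Gfi1b, chr2:28621983-28622232, - strand: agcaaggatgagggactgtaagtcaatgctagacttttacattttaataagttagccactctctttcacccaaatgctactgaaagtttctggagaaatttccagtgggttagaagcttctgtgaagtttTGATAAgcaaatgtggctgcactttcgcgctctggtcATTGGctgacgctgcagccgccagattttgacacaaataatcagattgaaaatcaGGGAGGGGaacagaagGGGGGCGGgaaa

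A GATA word was thus present upstream of Hba-a1, Hba-a2 and Gfi1b, which were lower in DKO cells, and also upstream of Klf1, which was not. It was not found in the windows of Hbb-bt and Gata1, and it was found in those of Hbb-bs, the partner of Hbb-bt whose promoter is not printed, and of Epor. No Car1 or Car2 window was available, and Klf1 was under the filter. Whether these letters relate to the direction of the genes was not tested.

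Car2 was the most abundant of the 10 genes in both libraries. It was at 82.3 RPKM (2935 reads) in DKO cells and 399 RPKM (12212 reads) in p53 KO cells, 4.85-fold lower (interval 4.66 to 5.05), with a difference of -2.26. By level it ranked 840 of 22020 genes in DKO cells and 91 in p53 KO cells. Car1 was at 15.2 RPKM (359 reads) in DKO cells and 88.7 RPKM (1794 reads) in p53 KO cells, 5.83-fold lower (interval 5.20 to 6.54), with a difference of -2.47. Its second transcript had 353 reads in DKO cells and 1774 reads in p53 KO cells. The Car2 to Car1 ratio was 5.41 in DKO cells and 4.50 in p53 KO cells, so both enzymes kept their order of level.

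Of the other carbonic anhydrases, Car3 and Car13 went the opposite way. All 16 carbonic anhydrase genes were found and 6 reached a mean of 1 RPKM, of which Car1 and Car2 were lower, Car3 and Car13 higher and Car9 and Car14 within 2-fold. Car3, the muscle and fat enzyme, was at 12.2 RPKM (372 reads) in DKO cells and 5.21 RPKM (136 reads) in p53 KO cells, a difference of 1.09. Car13, a cytosolic enzyme, was at 7.47 RPKM (342 reads) in DKO cells and 3.00 RPKM (118 reads) in p53 KO cells, a difference of 1.08. Both calls ended with scaling to equal totals, at 0.76 and 0.77, without a change of sign. These 4 genes are direct neighbours on chromosome 3 in the order Car13, Car1, Car3 and Car2, so higher and lower genes alternated within 1 cluster. Car9, a tumour-associated hypoxia-induced enzyme, was at 7.81 RPKM in DKO cells and 6.63 RPKM in p53 KO cells (0.21, and -0.12 with equal totals), and Car14 at 1.76 RPKM in DKO cells and 0.864 RPKM in p53 KO cells (0.57). The mitochondrial enzyme gene Car5b, under the filter and picked with its value in view, had 8 reads in DKO cells and 71 reads in p53 KO cells.

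The order of the RPKM ratios does not depend on scaling, since a scaling moves all ratios alike. From the lowest, the ratios of DKO over p53 KO cells were 0.0918 for Hba-a1, 0.136 for Hbb-b1, 0.172 for Car1, 0.206 for Car2, 0.222 for Gata1 and 0.405 for Gfi1b. The intervals of Hba-a1 (0.0812 to 0.104), Hbb-b1 (0.124 to 0.148), Car1 (0.153 to 0.192) and Car2 (0.198 to 0.215) were separate from each other. The interval of Gata1, 0.173 to 0.284, overlapped those of Car1 and Car2, so Gata1 cannot be placed before, between or after them at this depth. Gfi1b, at 0.320 to 0.510, lay above all of them.

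**Figure D3:**
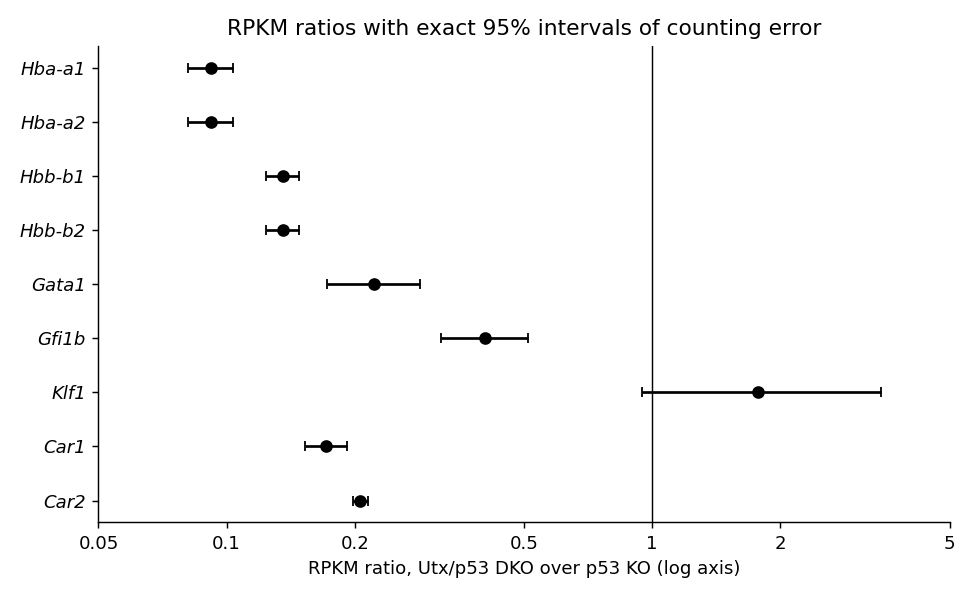
RPKM ratios, DKO over p53 KO cells, on a log axis with exact 95% intervals of counting error. Epor, with 0 reads in DKO cells, is left out. The globins lie between 0.0917 and 0.136, Car1, Car2 and Gata1 between 0.172 and 0.222, and the interval of Klf1 spans 1.

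In the authors' deposited table the GFOLD value, a log2 fold change shrunk for low counts, was -2.64 for Hba-a1, -2.13 for Hbb-b1, -1.75 for Car1, -1.61 for Car2, -1.16 for Gata1 and -0.32 for Gfi1b. The same authors' deposited table has 0.41 for Klf1 and 0 for Epor. Its q-value was 1 for every transcript, which with 1 library per genotype is not a finding of no difference. On the scale of the authors' normalization constants, 7 of the 8 measured genes were lower by at least 2-fold, against 5.78% of all genes, and Gfi1b was not.

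**Figure D4:**
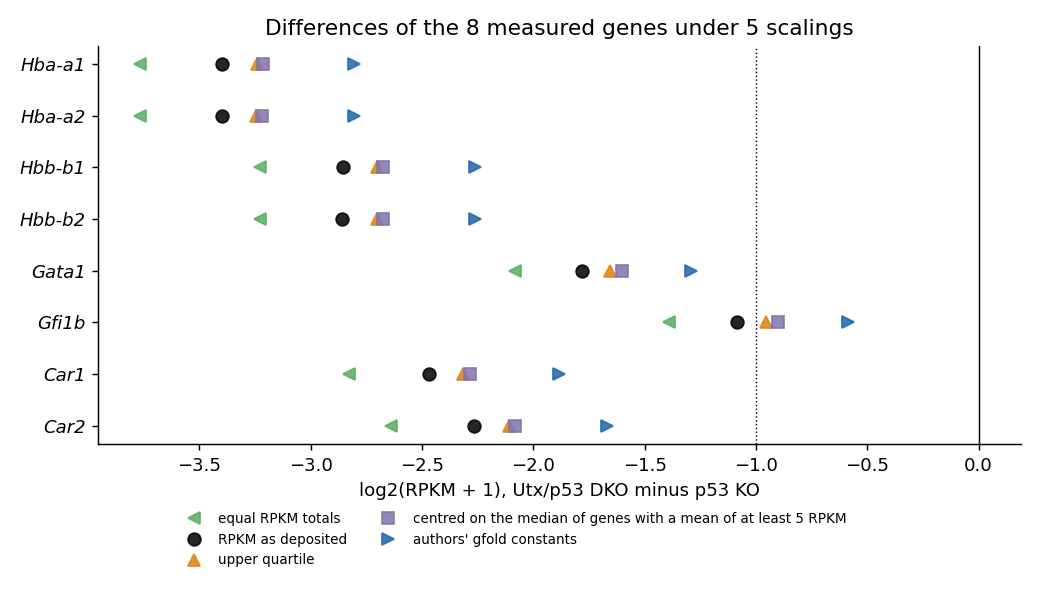
Differences on log2(RPKM + 1), DKO minus p53 KO, of the 8 measured genes under 5 ways of scaling the libraries, with the dotted line at 2-fold. Every point lies below 0, from -3.76 for Hba-a2 with equal totals to -0.59 for Gfi1b with the authors' gfold constants.

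The wider red cell programme was uneven, and structural proteins of the red cell stood out among its lower genes. Of 25 listed genes of the red cell membrane and its skeleton, all were found and 17 measured, of which 9 were lower and 1 was higher (median -1.16, all genes -0.24). Among all genes 13.5% were lower and 6.60% higher. Of the 17, 5 were under 1 RPKM in DKO cells and passed through the p53 KO library. Ermap, an erythroid membrane protein gene, had 3 reads in DKO cells and 212 reads in p53 KO cells (-1.85), and the water channel gene Aqp1 was at 1.29 RPKM in DKO cells and 7.44 RPKM in p53 KO cells (-1.88). The anion exchanger Slc4a1, or band 3, had 3 reads in DKO cells and 177 reads in p53 KO cells (-1.67). The gene that was higher, Stom, encodes stomatin, a membrane protein also found in many other cell types, and was at 96.5 RPKM in DKO cells and 14.9 RPKM in p53 KO cells (2.61). Slc4a1 was picked after its value was seen.

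Genes of late red cell maturation went both ways. Of 23 listed genes 22 were found and 17 measured, 5 of them lower, 1 higher and 11 within 2-fold (median -0.41). The shares of all genes were 13.5% lower and 6.60% higher. Hemgn, a nuclear regulator of blood progenitors and red cell precursors, was at 2.13 RPKM (98 reads) in DKO cells and 21.6 RPKM (852 reads) in p53 KO cells (-2.85). Alas2, the erythroid enzyme that starts haem synthesis, had 14 reads in DKO cells and 178 reads in p53 KO cells (-2.23). At 0.363 RPKM in DKO cells, Alas2 passed the filter through the p53 KO library, so its call is no separate support. Ube2l6, an interferon-induced conjugating enzyme of ISG15 that also accumulates in red cell precursors, was at 22.0 RPKM in DKO cells and 112 RPKM in p53 KO cells (-2.30), and Bpgm, which makes 2,3-bisphosphoglycerate in red cells, at 4.05 and 12.9 RPKM (-1.46). Gpx1, a glutathione peroxidase of many cell types and named after its value was seen, was the higher one, at 4638 RPKM in DKO cells and 1760.0 RPKM in p53 KO cells (1.40). With the gfold constants 3 genes of the list were lower and 4 higher, against 5.78% and 15.9% of all genes, and with equal totals 8 were lower and 1 higher, against 24.8% and 4.55%.

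Of 30 genes listed for early erythroid progenitors, a list that holds Car1, Car2 and Klf1, 29 were found and 22 measured. In DKO cells 10 were lower, 3 higher and 9 within 2-fold (median -0.80), beside 13.5% of all genes lower and 6.60% higher. With the gfold constants 10 were lower and 5 higher, against 5.78% and 15.9% of all genes. With equal totals 12 were lower and 2 higher, against 24.8% and 4.55%. The list shares genes with those above, Hemgn, Ermap and Aqp1 among them. Sphk1, which makes the lipid signal that red cells store, had 0 reads in DKO cells and 71 reads in p53 KO cells. Mt2, a metallothionein that binds zinc and copper in many cell types, was the highest of the list, at 30.5 RPKM in DKO cells and 1.89 RPKM in p53 KO cells (3.44). Of these 22 genes, 4 were under 1 RPKM in DKO cells and passed through the p53 KO library.

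Transcription factors of the red cell network other than the members mostly stayed within 2-fold. Of 28 listed factors, 25 were measured, of which 5 were lower, Gata1 and Gfi1b among them, 1 was higher and 19 lay within 2-fold (median -0.40, all genes -0.24). Among all genes 13.5% were lower and 6.60% higher. The lower ones beside the members were Sox6 and Bcl11a, repressors of embryonic and fetal globin genes, and Ssbp2, a partner of the LDB1 complex. Sox6 was at 0.354 RPKM (57 reads) in DKO cells and 2.65 RPKM (366 reads) in p53 KO cells (-1.43). Being under 1 RPKM in DKO cells, Sox6 passed the filter through the p53 KO library, so its call is no separate support. Bcl11a was at 5.87 RPKM in DKO cells and 14.99 RPKM in p53 KO cells (-1.22), and Ssbp2 at 6.91 and 19.6 RPKM (-1.38). Mafg, a small partner of the factor NF-E2, was higher, at 49.8 RPKM in DKO cells and 16.3 RPKM in p53 KO cells (1.56). Tal1, which binds beside GATA1 in a complex with Lmo2, was at 6.54 RPKM in DKO cells and 10.9 RPKM in p53 KO cells (-0.66), and Lmo2 at 93.1 and 123 RPKM (-0.39, with its sign turned to 0.20 by the gfold constants). Tal1 and Lmo2 were named after their values were seen. With the gfold constants 2 of the 25 were lower and 4 higher, against 5.78% and 15.9% of all genes, and the median was 0.12 beside 0.27. With equal totals 9 were lower and 1 higher, against 24.8% and 4.55% of all genes.

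Of 22 listed genes of erythropoietin signalling 20 were measured, 3 of them lower, 0 higher and 17 within 2-fold (median -0.43), beside 13.5% of all genes lower and 6.60% higher. The lower genes were the receptor gene Kit, at 16.0 RPKM in DKO cells and 64.2 RPKM in p53 KO cells (-1.94), the survival gene Bcl2l1, at 11.3 and 36.6 RPKM (-1.61), and the cytokine and Stat5 target Osm, at 3.68 and 9.54 RPKM (-1.17). Socs3, a feedback inhibitor, was at 0.479 RPKM in DKO cells and 1.805 RPKM in p53 KO cells (-0.92). The kinase gene Jak2, which carries the receptor's signal and was picked with its value in view, was at 7.34 RPKM in DKO cells and 6.77 RPKM in p53 KO cells (0.10, and -0.22 with equal totals). With the gfold constants 2 genes were lower and 1 was higher, against 5.78% and 15.9% of all genes. With equal totals 8 were lower and 0 higher, against 24.8% and 4.55%.

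**Figure D5:**
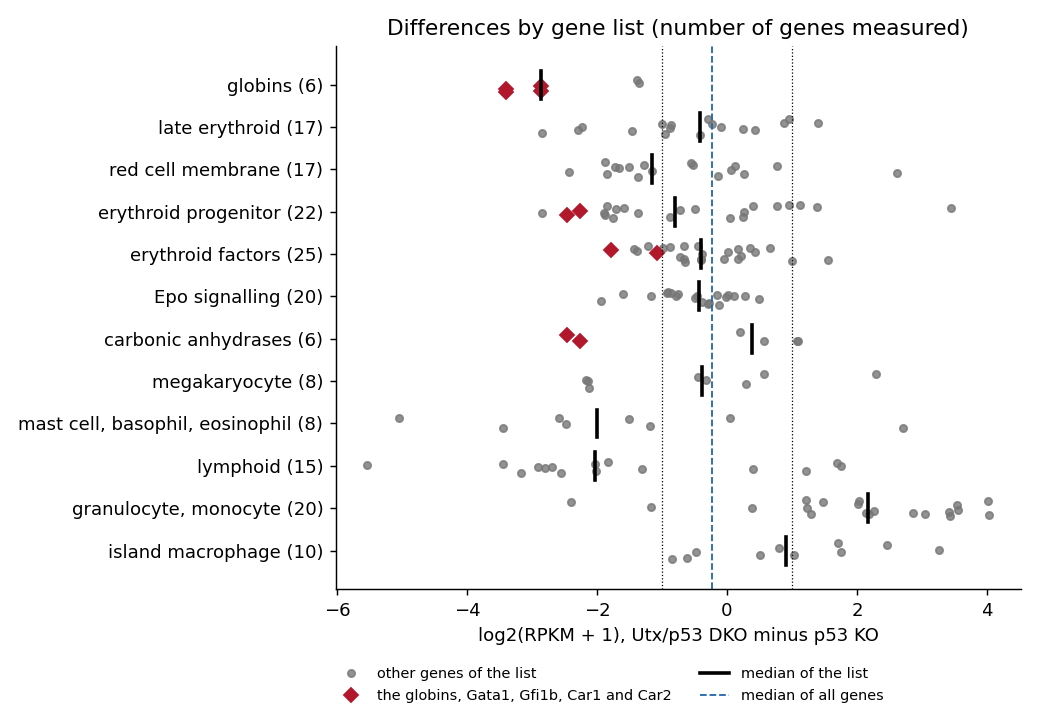
Differences on log2(RPKM + 1), DKO minus p53 KO, of the measured genes of 12 lists, 1 point per gene, with the number measured in brackets. Black bars are list medians, the dashed line is the median of all genes at -0.24 and dotted lines mark 2-fold. All 6 measured globin genes lie at -1.36 or lower, and the granulocyte and monocyte genes lie mostly to the right, with a median of 2.16.

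Markers of other cell types differed between the libraries too, in both directions, and their part in the results was not tested. The counts below stand beside 13.5% of all genes lower and 6.60% higher. Of 20 granulocyte and monocyte markers 17 were higher and 2 lower in DKO cells, and their summed level was 72083 RPKM in DKO cells and 6489 RPKM in p53 KO cells. Single markers of this list ranged between 2.62 and 26714 RPKM in DKO cells and between 2.35 and 1649 RPKM in p53 KO cells, so none was at 0. Of 15 measured lymphoid markers 11 were lower and 3 higher, 3 of the 15 being under 1 RPKM in DKO cells and measured through the p53 KO library, with sums of 691 RPKM in DKO cells and 889 RPKM in p53 KO cells. The sum includes Igll1, which was among the higher ones, at 563 RPKM in DKO cells and 166 RPKM in p53 KO cells. Of 8 measured mast cell, basophil and eosinophil markers 6 were lower and 1 higher (sums of 71.2 RPKM in DKO cells and 137 RPKM in p53 KO cells), with Fcer1a at 0.293 and 6.73 RPKM. Of these 8, Fcer1a, Prss34, Hdc and Ear1 were under 1 RPKM in DKO cells and passed through the p53 KO library, so they had to come out lower, and of the other 4 markers 2 were lower and 1 was higher. Ear1, an eosinophil ribonuclease gene with close copies, was at 0 reads in DKO cells.

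Megakaryocyte markers, the lineage closest to red cells, were divided, with 3 lower and 1 higher of 8 measured (median -0.38). The shares of all genes were 13.5% lower and 6.60% higher. The summed level of all 16 megakaryocyte genes was 144 RPKM in DKO cells and 196 RPKM in p53 KO cells. The integrin gene Itga2b was at 0.949 RPKM in DKO cells and 7.54 RPKM in p53 KO cells (-2.13), and Gp9 of the platelet receptor for von Willebrand factor at 1.11 RPKM in DKO cells and 8.23 RPKM in p53 KO cells (-2.13). Of these, Itga2b was under 1 RPKM in DKO cells and passed the filter through the p53 KO library. P-selectin (Selp), which endothelial cells also make, was at 32.2 RPKM in DKO cells and 5.75 RPKM in p53 KO cells (2.30). Markers of the macrophages that surround red cell precursors in the marrow were 5 higher and 0 lower of 10 measured (sums of 164 RPKM in DKO cells and 110.5 RPKM in p53 KO cells). Among the higher ones, Emr1 was at 4.72 RPKM in DKO cells and 0.739 RPKM in p53 KO cells. It passed the filter through the DKO library, so it had to come out higher. Vcam1 was at 32.2 RPKM in DKO cells and 2.45 RPKM in p53 KO cells (3.27), while Siglec1 was at 0 RPKM in DKO cells and 0.0458 RPKM in p53 KO cells. Of the genes of the sort itself, Kit is given above and Ly6a, which encodes Sca-1, was at 281 RPKM in DKO cells and 255 RPKM in p53 KO cells (0.14, and -0.23 with equal totals).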

How the data were processed

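Per the labels' protocols, LSK cells were sorted into a lysis reagent and cDNA of their oligo-dT selected RNA was made and amplified by a SMART kit. Alignment used TopHat2 2.1.0 after bcl2fastq 1.8.4, and the build was mm9, per the submitters' processing notes. The authors deposited RPKM values of both libraries in 1 table of 28344 transcripts, which gfold 1.1.4 wrote, per the file headers. The columns were matched to the samples by the order of the libraries in the header. The authors deposited a log2 fold change and GFOLD value and a q-value as well. Whether the counting used strand or shared reads among copies is not stated in the labels or headers, so antisense overlaps and copies are uncertain.

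RPKM ratios use the header's read totals, while the authors' log2 fold change applies constants of 1.30144 (p53 KO) and 1 (DKO), a shift of 0.602 on the log2 scale. Differences used log2(RPKM + 1), a mean of at least 1 RPKM and the transcript with the highest mean per symbol (python 3.11.15, scipy 1.17.1, biopython 1.88). Whole reads were recovered from the printed values by searching for the transcript length, with 1 solution for 95.6% of 24644 transcripts with reads. On 982 simulated transcripts 95.5% had 1 solution, and 100% of those were right. Ratios have exact (Clopper-Pearson) 95% intervals.

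The members and all 13 gene lists (238 entries) were chosen with earlier results of these data known. Named were the 10 members, up to 4 genes per list with the largest absolute difference (some are not reported here), and genes said to be named after their values were seen, which include the chromosomal neighbours, Hbq1a, Hbb-y, Hbb-bh1, Gata2, Igll1, Siglec1 and Hdc. Having 1 library per genotype, the comparison allowed no test. Alternatives were pseudocounts, filters, scalings, the transcript used, 1 gene per globin pair and other fold rules.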

Additional observations from a re-analysis of the deposited data

How the results depend on the processing

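The number of members at least 2-fold lower was 8 with the deposited RPKM and lay between 6 and 8 under the 12 alternatives, 6 being all of the genes left when the globin copies were counted as 1 alpha and 1 beta gene, and 0 members were higher under any of them. Their median difference was -2.66 and moved to -2.71 with a pseudocount of 0.1 RPKM, -2.48 with a pseudocount of 5 RPKM, -2.48 when centred on the genes at 5 RPKM or more, -2.51 with upper-quartile scaling, -3.03 with equal totals and -2.07 with the authors' gfold constants. It was -2.37 without the filter, which adds Klf1 and Epor, and -2.37 with 1 gene per globin pair. Over 7 alternatives for each of the 10 genes, 0 of 70 differences changed sign. Depth limits Klf1, with 33 reads in DKO cells and 16 reads in p53 KO cells, and Epor, with 0 and 6 reads. Gfi1b was the gene that lost its 2-fold call where 7 of 8 were lower, with a pseudocount of 5 RPKM, centred, upper-quartile and gfold scaling and a 3-fold rule. No paired analysis was possible because each genotype has 1 library.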
